A study of Mus musculus with 8 samples.

Results

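Oxidative phosphorylation is described here by 100 genes of its 5 complexes, out of 22052 genes measured in mouse liver. Members were chosen by name from the table: symbols of NADH dehydrogenase (Nduf), succinate dehydrogenase (Sdh), cytochrome bc1 (Uqcr), cytochrome c oxidase (Cox4 to Cox8) and ATP synthase (Atp5) genes, and of the protein-coding genes of mitochondrial DNA. Names marked as pseudogenes were left out, and a mean of at least 20 over all 8 livers was required. Of 106 matching names, 100 passed, 87 encoded in the nucleus and 13 in mitochondrial DNA. The members nearest above the limit were mt-Atp8, Ndufs6b and mt-Nd3, with means of 20.8, 31.5 and 40.1 normalised read counts. Nearest below it were Cox7a1, Ndufb4c and Cox6b2, with means of 15.4, 15.1 and 9.66. The other genes left out were Cox6c2, Cox4i2 and Cox6a2.

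Total RNA came from livers of male C57BL/6 mice aged 8 weeks, 4 per group. The dKO mice carried Zfp36l1fl/fl and Zfp36l2fl/fl alleles with Alb-Cre, a recombinase under the control of the albumin promoter, which hepatocytes and the precursors of bile duct cells use. Control mice carried the same floxed alleles without Cre. Every mouse of both groups had received corn oil by intraperitoneal injection. Both deleted genes encode proteins that recognise AU-rich stretches of a messenger's 3′ untranslated region (3′ UTR) and promote its decay. The study asked how liver gene expression differs when both genes are deleted, and numbers its mice 1 to 4 within each group.

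Complexes I to IV of the inner mitochondrial membrane pass electrons to oxygen and, except for complex II, pump protons, and complex V (ATP synthase) uses the proton gradient to make ATP. Mitochondrial DNA encodes core membrane subunits of complexes I, III, IV and V, and the nucleus encodes all other subunits, all of complex II and the factors that assemble the complexes. The heavy strand of mitochondrial DNA is transcribed as 1 long precursor that is cut at transfer RNAs, and mt-Nd6 lies on the other strand. Hepatocytes are rich in mitochondria and draw on the chain for gluconeogenesis, urea synthesis and fatty acid oxidation.

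Levels are normalised read counts, that is, reads per gene divided by 1 size factor per library. Log2 changes compare dKO with control livers after adding 0.5 to each value, and were tested with limma and Benjamini-Hochberg adjustment over 20055 genes, with a threshold of 0.05. "Lower" and "higher" calls refer to that test. The libraries held 17273389 to 19299556 reads in dKO livers and 15253827 to 17745944 in control livers. Zfp36l1 had 214, 213, 209 and 267 normalised read counts in dKO livers 1 to 4, against 1321, 1336, 1182 and 1642 in control livers 1 to 4. Zfp36l2 averaged 796 ± 94.4 in dKO livers and 1584 ± 393 in control livers (SD, n = 4 each). The hepatocyte markers of the livers summed to 1374210 to 1479310 in dKO livers and 1408640 to 1529160 in control livers. In whole tissue, fewer cells of a type and less RNA per cell cannot be told apart.

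Most members that changed were lower in dKO livers, by small amounts. Of the 87 nuclear-encoded members, 22 were lower, 3 were higher and 62 passed in neither direction, with a median log2 change of -0.14. Over all genes tested, 17.0% were lower and 21.2% higher (38.2% in either direction), with a median of 0.03. Most members are abundant, and among the 4736 genes whose mean reached 500, 34.2% were lower and 21.2% higher, with a median of -0.10. Of the 74 nuclear members at that level, 19 (25.7%) were lower and 2 were higher. The share of lower members was therefore above that of all genes and below that of equally abundant genes. Of the 25 nuclear members called, 24 lay within 1.5-fold of control, and the exception was Ndufaf1. Quantile normalization moved the median of all genes to -0.08, and the nuclear members' median was then -0.05. The 3 higher members were Ndufa8, Cox7a2 and Atp5s.

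Of the 13 mitochondrially encoded members, 6 (46.2%) were lower and none was higher. Over all genes tested 17.0% were lower, and among those with a mean of at least 500, 34.2%. The 13 members had a median log2 change of -0.35 and 12 negative values. The lower members were mt-Nd2, mt-Nd4, mt-Nd4l, mt-Cytb, mt-Co1 and mt-Atp6. At an unadjusted p under 0.05, limma counted 0 higher and 7 lower, and edgeR and DESeq2 each counted 0 higher and 8 lower (0 and 7 after adjustment). The number lower was 3 to 7 when 1 liver was left out, and it was 3 without dKO 2.

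**Figure D1:**
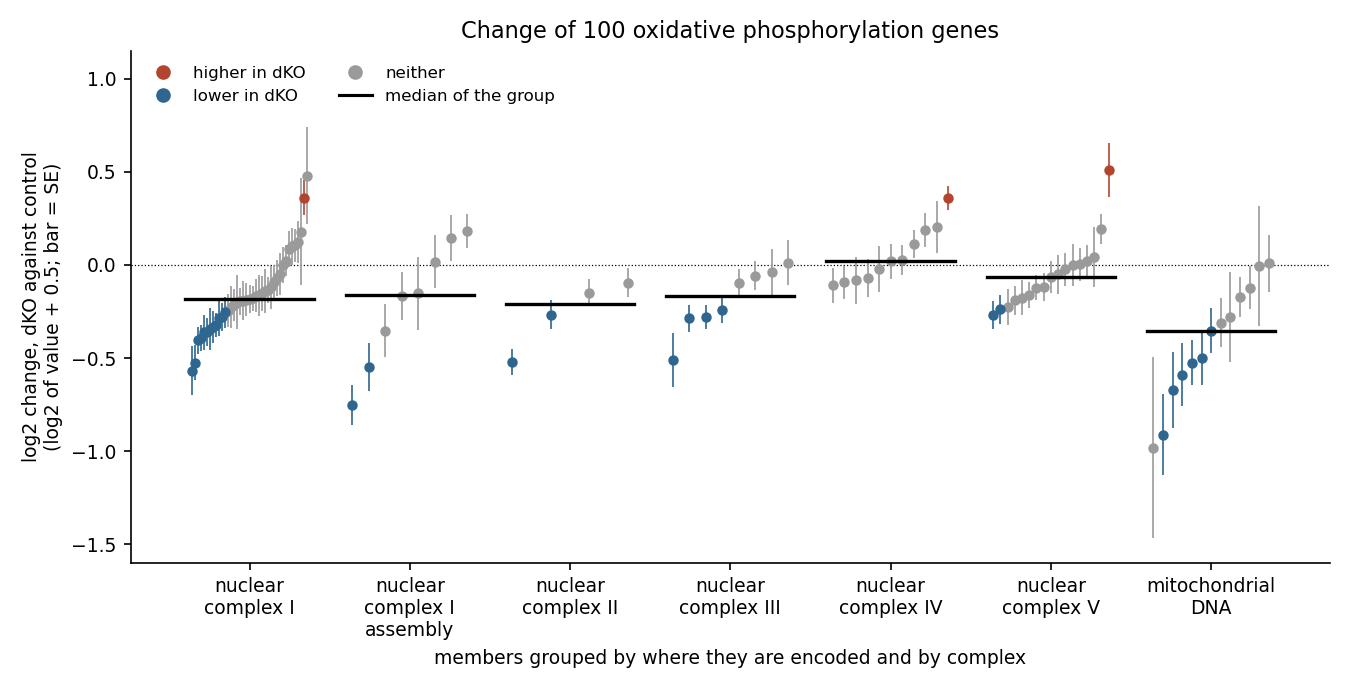
Log2 change of each of the 100 members, dKO against control, with its standard error (vertical axis), grouped by where the gene is encoded and by complex (horizontal axis). Blue points were lower, red points higher and grey points neither; complex IV holds no nuclear member that was lower, and 12 of 13 mitochondrially encoded members lie below 0.

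Liver by liver, the nuclear and mitochondrial genomes did not separate the groups alike. The 13 mitochondrially encoded members summed to 624583, 536958, 490241 and 597823 normalised read counts in dKO livers 1 to 4, against 697557, 832147, 755209 and 787637 in control livers 1 to 4. All 4 dKO sums lay below all 4 control sums, and the dKO mean was 73.2% of the control mean. These members took 2.98% to 3.596% of all values in dKO livers and 3.91% to 4.57% in control livers. The 87 nuclear-encoded members summed to 201550, 200609, 173763 and 184479 in dKO livers, against 200477, 197052, 221487 and 206620 in control livers. These sums overlapped: dKO 1 and dKO 2 lay above control 1 and control 2, and the dKO mean was 92.1% of the control mean. The ratio of the mitochondrial to the nuclear sum was 3.10, 2.68, 2.82 and 3.24 in dKO livers, against 3.48, 4.22, 3.41 and 3.81 in control livers, without overlap. A sum is led by its most abundant genes, so the member counts above and these sums answer different questions. The mitochondrial sum and the ratio describe in effect 7 of the 13 genes, with means of 16763 to 269821. mt-Co1 has the highest of these means and leads the sum. In 4 of the 7, all dKO livers were below all control livers. The other 6 had means of 20.8 to 1110, and all but mt-Atp8 have near-identical annotated copies in the nucleus. How reads shared with copies were assigned was not tested.

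**Figure D2:**
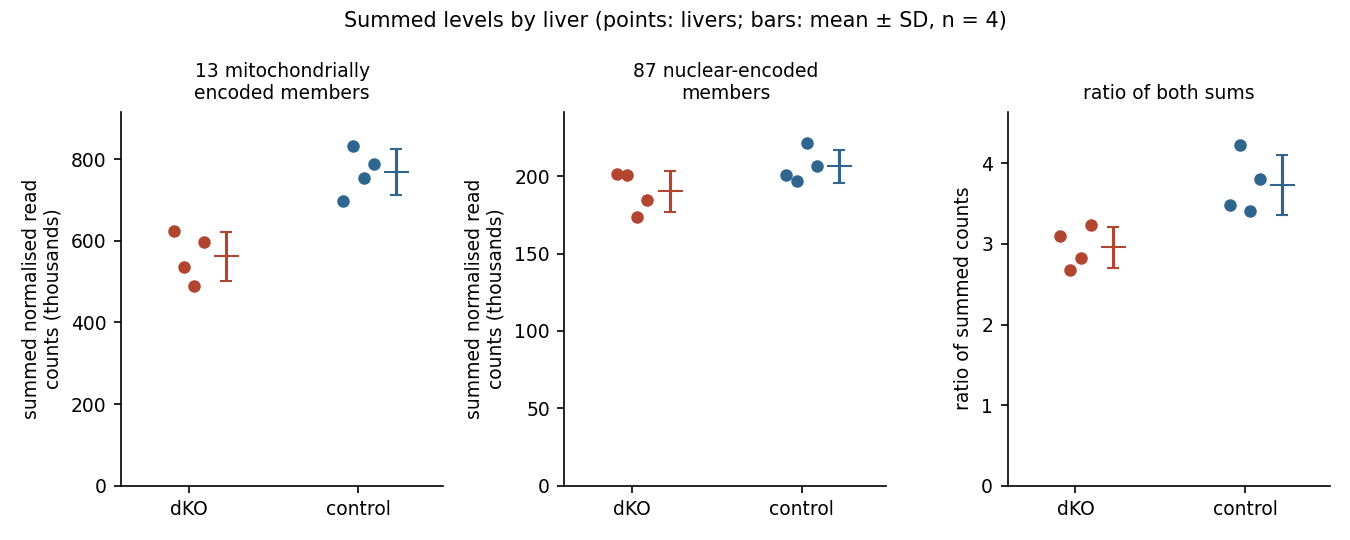
Summed normalised read counts of the 13 mitochondrially and the 87 nuclear-encoded members (vertical axes, scaled as labelled) and the ratio of both sums, in 4 dKO and 4 control livers. Points are livers and bars the mean ± SD. The mitochondrial sums and the ratios do not overlap between groups, the nuclear sums do. The mitochondrial sum is in effect that of 7 abundant genes, led by mt-Co1.

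The mitochondrially encoded members fell into an abundant and a scarce group. Per kb of gene, mt-Co1, the catalytic subunit of cytochrome c oxidase, led with a mean of 139712 normalised read counts per kb in dKO livers and 209570 in control livers. mt-Cytb, the cytochrome b of complex III, followed with 82584.5 per kb in dKO livers and 116312 in control livers. mt-Nd1, mt-Nd2, mt-Nd4, mt-Nd5 and mt-Nd6, membrane subunits of complex I, had 30345.7 to 70520.9 per kb in dKO livers and 34251.6 to 78678.3 in control livers. The other 6 genes, mt-Co2, mt-Co3, mt-Atp6, mt-Atp8, mt-Nd3 and mt-Nd4l, had 61.1 to 1650 per kb in dKO livers and 126 to 1597 in control livers. mt-Co1 alone exceeded the summed per kb level of all 87 nuclear members, which was 114307 in dKO livers and 122407 in control livers.

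The scarce genes have near-identical annotated copies in the nucleus, mt-Atp8 excepted. A block on chromosome 1 of GRCm38, chr1:24611535-24616197, holds 7 annotated pseudogenes that match mitochondrial genes at 99% identity or more. Gm28661 matches mt-Co2 without a mismatch over 681 bases, Gm10925 matches mt-Atp6 over 678 and Gm28437 matches mt-Co3 over 783. Gm28438 matches mt-Nd3 at 99.7% over 345 bases and Gm10222 matches mt-Nd4l at 100% over 294. Gm28439 and Gm29216 match 876 bases of mt-Nd4 and 483 bases of mt-Co1, genes that are also covered outside the match. No annotated copy was found for mt-Nd1, mt-Nd6, mt-Cytb or mt-Atp8. Only annotated transcripts were searched, for matches of at least 100 bases. On mitochondrial DNA, mt-Atp8 lies between mt-Co2 and mt-Atp6, and the block holds copies of both. The end of mt-Atp8 (chrM:7766-7969) overlaps mt-Atp6, which starts at chrM:7927, over 21.1% of the bases of mt-Atp8. Gm10925 matches mt-Atp6 from its first base, so the block also holds this end of mt-Atp8, a stretch too short for the search. Whether the block holds the rest of mt-Atp8 was not tested. The first 30 bases of 2 such pairs, at chrM:7013-7042 (plus strand) with chr1:24615536-24615565 (minus strand), and at chrM:7927-7956 (plus strand) with chr1:24614622-24614651 (minus strand), are shown from GENCODE M21 transcripts because reads from them cannot be assigned to 1 locus. They are in lower case throughout, since no base differs.
mt-Co2: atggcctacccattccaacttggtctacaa
Gm28661: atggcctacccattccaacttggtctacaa
mt-Atp6: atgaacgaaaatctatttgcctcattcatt
Gm10925: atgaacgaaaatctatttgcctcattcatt

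Levels of the copies relative to their genes varied. Gm28438 had a mean over all livers of 433, above the 40.1 of mt-Nd3, while Gm29216 and Gm28439 had 259 and 270, far below mt-Co1 and mt-Nd4. Gm28661 averaged 744 ± 115 normalised read counts in dKO livers and 1009 ± 86.1 in control livers, and mt-Co2 averaged 1128 ± 284 in dKO livers and 1092 ± 29.3 in control livers (SD, n = 4 each). The copy was lower in dKO livers (log2 change -0.45, SE 0.11, limma's adjusted p 0.00707), and mt-Co2 itself was not called (log2 change 0.01, SE 0.15). Added together, the pair had 1604, 1968, 2006 and 1910 in dKO livers, against 2078, 1997, 2194 and 2138 in control livers, and the groups overlapped. mt-Nd3 with Gm28438 summed to 239, 223, 264 and 249 in dKO livers, against 957, 931, 322 and 603 in control livers, with no overlap. mt-Nd3 alone averaged 36.3 ± 7.57 in dKO livers and 43.9 ± 7.97 in control livers and was not called (log2 change -0.28, SE 0.24). mt-Atp6 with Gm10925 summed to 1021, 1084, 1350 and 1049 in dKO livers, against 1602, 1669, 1885 and 1601 in control livers, again apart. Levels and changes of mt-Co2, mt-Co3, mt-Atp6, mt-Nd3 and mt-Nd4l taken singly are therefore uncertain. So is their part in the mitochondrial sums and in the order per kb. The same may hold for mt-Atp8, whose end is shared with mt-Atp6 and its copy, and for which unannotated copies were not searched.

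Among the 7 abundant genes, 4 were lower and 3 were not called. mt-Co1 had 239568, 217076, 181121 and 225655 normalised read counts in dKO livers 1 to 4, against 298840, 348051, 312930 and 335323 in control livers 1 to 4. Every dKO liver was below every control liver (log2 change -0.59, SE 0.17, limma's adjusted p 0.0146). The mt-Co1 call was lost when replicate numbers were added to the fit (limma's adjusted p 0.0629). mt-Cytb had 107560, 85048, 81183 and 104116 in dKO livers, against 117794, 141004, 134290 and 139154 in control livers. The groups were apart (log2 change -0.50, SE 0.14, limma's adjusted p 0.0141). Limma's adjusted p was 0.0507 without dKO 2 and 0.0508 with replicate numbers in the fit.

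mt-Nd4 averaged 45536 ± 5408 in dKO livers and 65414 ± 5868 in control livers (SD, n = 4 each), with no overlap (log2 change -0.53, SE 0.12, limma's adjusted p 0.00404). It was lower in all 20 alternative fits. mt-Nd2 averaged 64058 ± 6602 in dKO livers and 81668 ± 6214 in control livers (log2 change -0.35, SE 0.12, limma's adjusted p 0.0347). Its call was lost when dKO 2, dKO 3, control 2, control 3 or control 4 was left out (limma's adjusted p 0.0925, 0.0763, 0.0931, 0.0513 and 0.0561 in that order), and under quantile normalization (log2 change -0.18, 0.193). mt-Nd5 averaged 56823 ± 7582 in dKO livers and 70306 ± 7569 in control livers (log2 change -0.31, SE 0.13), with an adjusted p of 0.0835 in limma, 0.0410 in edgeR and 0.0237 in DESeq2. Without control 1, limma's adjusted p for mt-Nd5 was 0.0492.

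mt-Nd1, the first protein gene after the ribosomal RNAs, had 73443, 68421, 60077 and 68013 in dKO livers, against 66655, 79489, 74749 and 72942 in control livers. The groups overlapped (log2 change -0.12, SE 0.12). mt-Nd6, on the light strand, had 17563, 14797, 14064 and 16573 in dKO livers, against 14612, 18896, 18736 and 18862 in control livers, and overlapped likewise (log2 change -0.17, SE 0.11). The ratio of mt-Co1 to mt-Nd1, a pair chosen after its values were seen, was 3.26, 3.17, 3.01 and 3.32 in dKO livers, against 4.48, 4.38, 4.19 and 4.597 in control livers. Its log2 difference was -0.47, a description with no test. Both genes are read from the heavy strand.

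Among the 6 scarce genes, mt-Nd4l and mt-Atp6 were lower. mt-Nd4l had 45.3, 56.4, 40.0 and 54.9 normalised read counts in dKO livers, against 69.8, 131, 85.2 and 91.5 in control livers (log2 change -0.91, SE 0.22, limma's adjusted p 0.00532). mt-Atp6 had 412, 526, 877 and 464 in dKO livers, against 880, 748, 1144 and 755 in control livers (log2 change -0.67, SE 0.21, limma's adjusted p 0.0209). dKO 3 lay within the control range of mt-Atp6, and its call was lost without dKO 1, dKO 2, dKO 4 or control 3 (limma's adjusted p 0.0675, 0.0509, 0.0647 and 0.0606 in that order). mt-Co3 had 495, 348, 343 and 1283 in dKO livers, against 515, 565, 522 and 507 in control livers (log2 change -0.01, SE 0.32). Without dKO 4, its log2 change was -0.44 and limma's adjusted p 0.0240. mt-Atp8, whose sequence overlaps mt-Atp6, had 7.66 to 17.1 in dKO livers and 13.7 to 64.7 in control livers (log2 change -0.98, SE 0.49, limma's adjusted p 0.134).

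**Figure D3:**
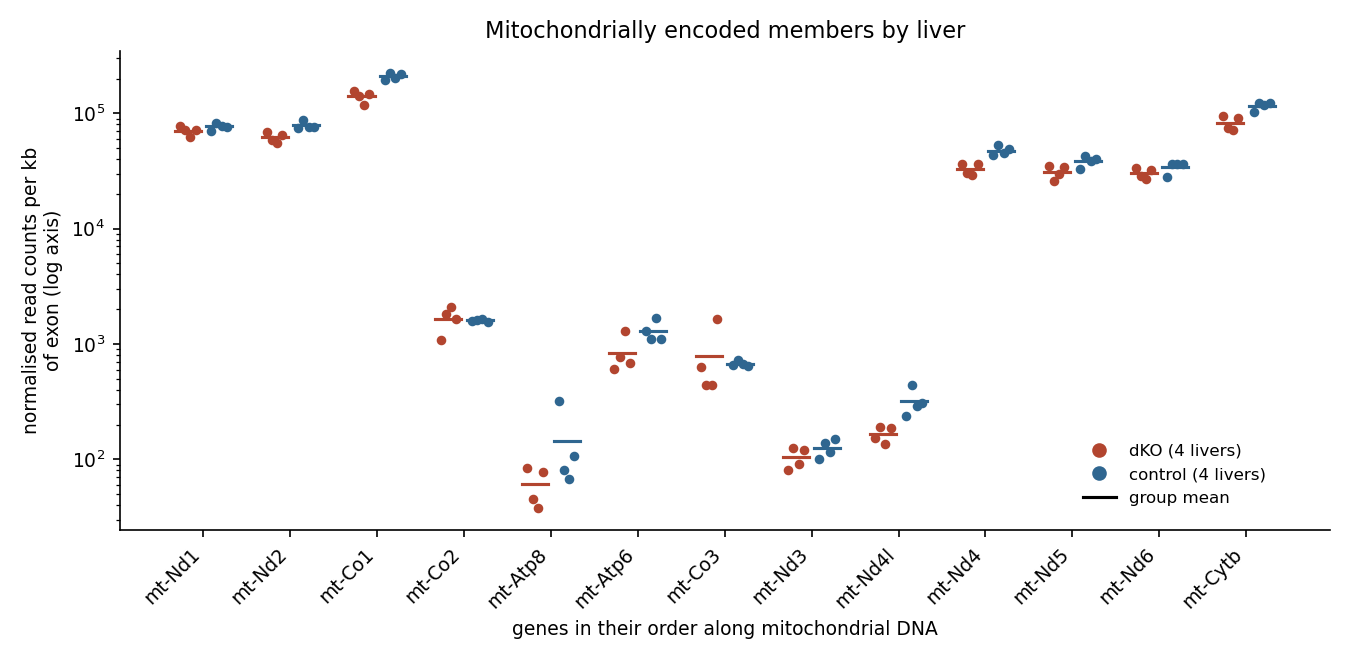
Normalised read counts per kb of exon (vertical axis, log scale) of the 13 mitochondrially encoded members in their order along mitochondrial DNA, with each dKO liver (red) and control liver (blue) as a point and group means as lines. mt-Co1, mt-Nd2, mt-Nd4 and mt-Cytb are apart between groups among the abundant genes and the 6 scarce genes form the lower band of the plot in every liver.

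The non-coding genes of mitochondrial DNA were measured as well, and both ribosomal RNAs were lower. mt-Rnr2, the large ribosomal RNA, averaged 9157 ± 1200 in dKO livers and 13461 ± 2475 in control livers (SD, n = 4 each; log2 change -0.55, SE 0.13, limma's adjusted p 0.00575). mt-Rnr1, the small one, averaged 6332 ± 650 in dKO livers and 8609 ± 1499 in control livers (log2 change -0.43, SE 0.12, limma's adjusted p 0.0124). Both calls were lost under quantile normalization (limma's adjusted p 0.0782 for mt-Rnr2 and 0.233 for mt-Rnr1). For only 1 of the 2 were all dKO livers below all control livers. Of 16 transfer RNA genes tested, 8 (50%) were lower and none was higher, with a median log2 change of -0.85, against 17.0% lower among all genes. At an unadjusted p under 0.05, limma counted 10 lower and 0 higher, and edgeR and DESeq2 each counted 11 lower and 0 higher. mt-Tl2 had 25.1, 21.3, 32.4 and 26.1 in dKO livers, against 216, 291, 54.7 and 141 in control livers. The control livers varied widely among themselves, and all lay above the dKO livers. Transfer RNAs are short and modified, so their counts hold only fragments that the library captured.

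Complex I, the entry point for electrons from NADH, is the largest group of nuclear members. Of its 39 nuclear subunits by name, 12 (30.8%) were lower and 1 was higher (median log2 change -0.18), against 34.2% lower among all genes with a mean of at least 500. Ndufs6b, 1 of the 39, is annotated as a processed pseudogene although its name does not say so, and it was not called. The 7 nuclear core subunits carry the flavin and iron-sulphur clusters or shape the quinone site. In each of the 7, all dKO livers were below all control livers. Of all genes tested 16.9% show this, and of the 4736 genes with a mean of at least 500, 1562 do. Of the 7, 4 were lower, among them Ndufs7 and Ndufs8 (median over the 7 of -0.28).

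Ndufs7, which carries the last iron-sulphur cluster, had 1080, 1131, 1035 and 1145 in dKO livers, against 1478, 1368, 1588 and 1390 in control livers. Its groups did not overlap (log2 change -0.41, SE 0.07, limma's adjusted p 0.000882). Ndufs8 averaged 924 ± 94.6 in dKO livers and 1161 ± 44.8 in control livers, a log2 change of -0.33 (SE 0.08). Core subunits that were not called had log2 changes of -0.20 (Ndufs3), -0.18 (Ndufv1) and -0.18 (Ndufs1), with adjusted p-values of 0.0510, 0.0692 and 0.0527 in limma.

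Accessory subunits surround that core. Of the 10 Ndufb subunits, which lie in the membrane arm, 6 were lower, namely Ndufb2, Ndufb3, Ndufb4, Ndufb5, Ndufb9 and Ndufb11 (median over the 10 of -0.31). Of all genes with a mean of at least 500, 34.2% were lower. Ndufb11 had 1620, 1490, 1269 and 1461 in dKO livers, against 2252, 1880, 2308 and 1965 in control livers (log2 change -0.52, SE 0.09, limma's adjusted p 0.000743). All dKO livers were below all control livers. Its coding sequence matches the annotated copy Gm6444 at 96.9% identity, and that copy had a mean of only 3.04. Ndufb5 averaged 818 ± 47.5 in dKO livers and 1073 ± 26.1 in control livers (log2 change -0.39, SE 0.07, limma's adjusted p 0.000862). Ndufb4 and Ndufb9 overlapped between groups. Both calls were lost without dKO 3, dKO 4, control 1 or control 3, and that of Ndufb4 also without dKO 1 or control 4. Ndufb2 averaged 87.3 in dKO livers and 129.6 in control livers, and it shares exon sequence with the overlapping gene Gm42420.

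Of the 15 Ndufa subunits, 2 (13.3%) were lower and 1 was higher, against 34.2% lower among all genes with a mean of at least 500. Ndufa9, which sits beside the quinone site, averaged 1418 ± 98.6 in dKO livers and 1818 ± 113 in control livers (log2 change -0.36, SE 0.08, limma's adjusted p 0.00246). Ndufa8, a small subunit on the intermembrane side, had 1853, 1982, 1559 and 1635 in dKO livers, against 1339, 1239, 1546 and 1340 in control livers. All dKO livers were above all control livers (log2 change 0.36, SE 0.09, limma's adjusted p 0.00890), although dKO 3 and control 3 were nearly equal. Ndufa4, named for complex I but since assigned to cytochrome c oxidase, had 3418, 3645, 2951 and 3104 in dKO livers, against 3855, 3557, 4242 and 3980 in control livers. dKO 2 lay above control 2, and the call (log2 change -0.26, SE 0.08, limma's adjusted p 0.0310) was lost without dKO 3, dKO 4, control 1, control 3 or control 4.

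The 8 Ndufaf assembly factors build complex I without being part of it. Of these, 2 (25%) were lower, against 24.3% of all genes with a mean of at least 20. Ndufaf1, a member of the complex that assembles the membrane arm, had 312, 284, 272 and 259 in dKO livers, against 452, 571, 455 and 427 in control livers. All dKO livers were below all control livers (log2 change -0.75, SE 0.11, limma's adjusted p 0.000157), the largest fall among the 87 nuclear members. Ndufaf6 averaged 169 ± 15.7 in dKO livers and 249 ± 35.8 in control livers (log2 change -0.55, SE 0.13, limma's adjusted p 0.00476). Ndufaf4, the most abundant of the 8, averaged 486 ± 47.8 in dKO livers and 427 ± 15.4 in control livers and was not called (log2 change 0.18, SE 0.09).

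Complex II, succinate dehydrogenase, links the citrate cycle to the chain, and 2 of its 4 subunits were lower. Of all genes with a mean of at least 500, 34.2% were lower. Sdha, the flavoprotein that oxidises succinate, had 6433, 6522, 6438 and 5856 in dKO livers, against 8930, 9444, 8808 and 9007 in control livers. Each group was tight and the groups were far apart (log2 change -0.52, SE 0.07), and limma's adjusted p of 8.59e-05 was the smallest of the 100 members. Sdhc, a membrane anchor, had 2466, 2458, 2065 and 2160 in dKO livers, against 2722, 2719, 2926 and 2616 in control livers (log2 change -0.27, SE 0.08, limma's adjusted p 0.0169). Its call was lost without dKO 4 (0.0532) or control 3 (0.0511) in limma. Sdhb, the iron-sulphur subunit, and Sdhd, the other anchor, had log2 changes of -0.10 (SE 0.08) and -0.15 (SE 0.07) and were not called.

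In complex III, which passes electrons from ubiquinol to cytochrome c, 4 of 8 nuclear subunits were lower. The share among all genes with a mean of at least 500 was 34.2%. Uqcrc2, a core protein, had 2905, 3002, 2993 and 2937 in dKO livers, against 3670, 3794, 3375 and 3546 in control livers, with a log2 change of -0.28 (SE 0.07, limma's adjusted p 0.00447). The dKO livers were nearly equal and all below the control livers. Its partner Uqcrc1 averaged 4057 ± 245 in dKO livers and 4793 ± 140 in control livers, a log2 change of -0.24 (SE 0.07). Uqcrq, a small subunit, averaged 4573 ± 263 in dKO livers and 5582 ± 337 in control livers, a log2 change of -0.29 (SE 0.07). Under quantile normalization the log2 changes of Uqcrq, Uqcrc1 and Uqcrc2 were -0.07, -0.08 and -0.12, and all 3 calls were lost (limma's adjusted p 0.431, 0.370 and 0.150). Uqcrb had 1328, 1429, 890 and 1186 in dKO livers, against 1475, 1515, 2071 and 1790 in control livers (log2 change -0.51, SE 0.14, limma's adjusted p 0.0139). Its groups came close at dKO 2 and control 1, without dKO 3 and control 3 together its log2 change was -0.28, and its whole coding sequence matches the annotated copy Gm2962 at 98.2% identity. Uqcrfs1, the Rieske iron-sulphur protein, and Uqcrh, the hinge protein, were not called (log2 change -0.06, SE 0.08, and -0.10, SE 0.08).

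Complex IV, cytochrome c oxidase, had none of its 11 nuclear subunits by name lower, with a median log2 change of 0.02. Of all genes tested 17.0% were lower, and of those with a mean of at least 500, 34.2%. Ndufa4, counted above by its name, is not among these 11. The difference between complexes was not tested. At an unadjusted p under 0.05, limma, edgeR and DESeq2 each counted 0 of the 11 lower and 1 higher. The higher subunit was Cox7a2, the form of subunit VIIa that is not restricted to muscle. It had 2212, 2290, 2110 and 2093 in dKO livers, against 1655, 1697, 1769 and 1670 in control livers. All dKO livers were above all control livers (log2 change 0.36, SE 0.07, limma's adjusted p 0.000862). Cox4i1, the nuclear-encoded subunit with the most reads and an early assembly partner, averaged 5759 ± 638 in dKO livers and 6128 ± 406 in control livers (log2 change -0.09, SE 0.09). Cox6a1 averaged 5294 ± 561 in dKO livers and 5219 ± 487 in control livers (log2 change 0.02, SE 0.10). Cox7a2l, a VIIa relative that joins complexes III and IV, averaged 1550 ± 35.4 in dKO livers and 1436 ± 122 in control livers and overlapped between groups (log2 change 0.11, SE 0.07). The muscle forms Cox6a2 and Cox7a1 lay below the limit for members, with means of 1.70 and 15.4. Cox6b1 had a log2 change of 0.19 (SE 0.09, limma's adjusted p 0.127), and without dKO 3 its adjusted p was 0.0389.

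Complex V, ATP synthase, had 2 (11.8%) lower and 1 higher among 17 nuclear members, against 34.2% lower among all genes with a mean of at least 500. Its median log2 change was -0.07, and 0.04 under quantile normalization. Atp5a1, the alpha subunit of the catalytic F1 part, had 15026, 15012, 14170 and 13999 in dKO livers, against 16949, 17909, 17819 and 17529 in control livers. All dKO livers were below all control livers (log2 change -0.27, SE 0.07, limma's adjusted p 0.0118). Atp5b, the beta subunit, which holds the catalytic sites, had 23868, 23756, 21587 and 21603 in dKO livers, against 19654, 19599, 20040 and 20080 in control livers. Here all dKO livers were above all control livers, with a log2 change of 0.19 (SE 0.08) that missed the threshold (limma's adjusted p 0.0784; DESeq2's 0.00807).

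The ratio of Atp5b to Atp5a1, 2 subunits present in equal number in the enzyme and a pair chosen after its values were seen, was 1.59, 1.58, 1.52 and 1.54 in dKO livers, against 1.16, 1.09, 1.12 and 1.146 in control livers. Its log2 difference was 0.46, likewise with no test. A ratio within a liver does not depend on library scaling, and it does not show which gene changed. Under quantile normalization, Atp5a1 had a log2 change of 0.02 and Atp5b of 0.47.

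Atp5j, coupling factor 6 of the stalk, averaged 2219 ± 140 in dKO livers and 2618 ± 191 in control livers (log2 change -0.24, SE 0.08, limma's adjusted p 0.0261). Its call was lost without dKO 3 (0.0692) or control 3 (0.0824) in limma. Atp5s, coupling factor B, a scarce gene that is no core subunit, had 126, 135, 129 and 135 in dKO livers, against 85.2, 88.2, 83.1 and 114 in control livers. All dKO livers were above all control livers (log2 change 0.51, SE 0.14, limma's adjusted p 0.0138), but the call was lost under quantile normalization (log2 change 0.25, limma's adjusted p 0.154) and without dKO 3 and control 3 together (0.0624). The 3 genes of the membrane ring subunit c, Atp5g1, Atp5g2 and Atp5g3, had log2 changes of -0.00, -0.07 and -0.18 and were not called; Atp5g1 and Atp5g2 have whole annotated copies.

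**Figure D4:**
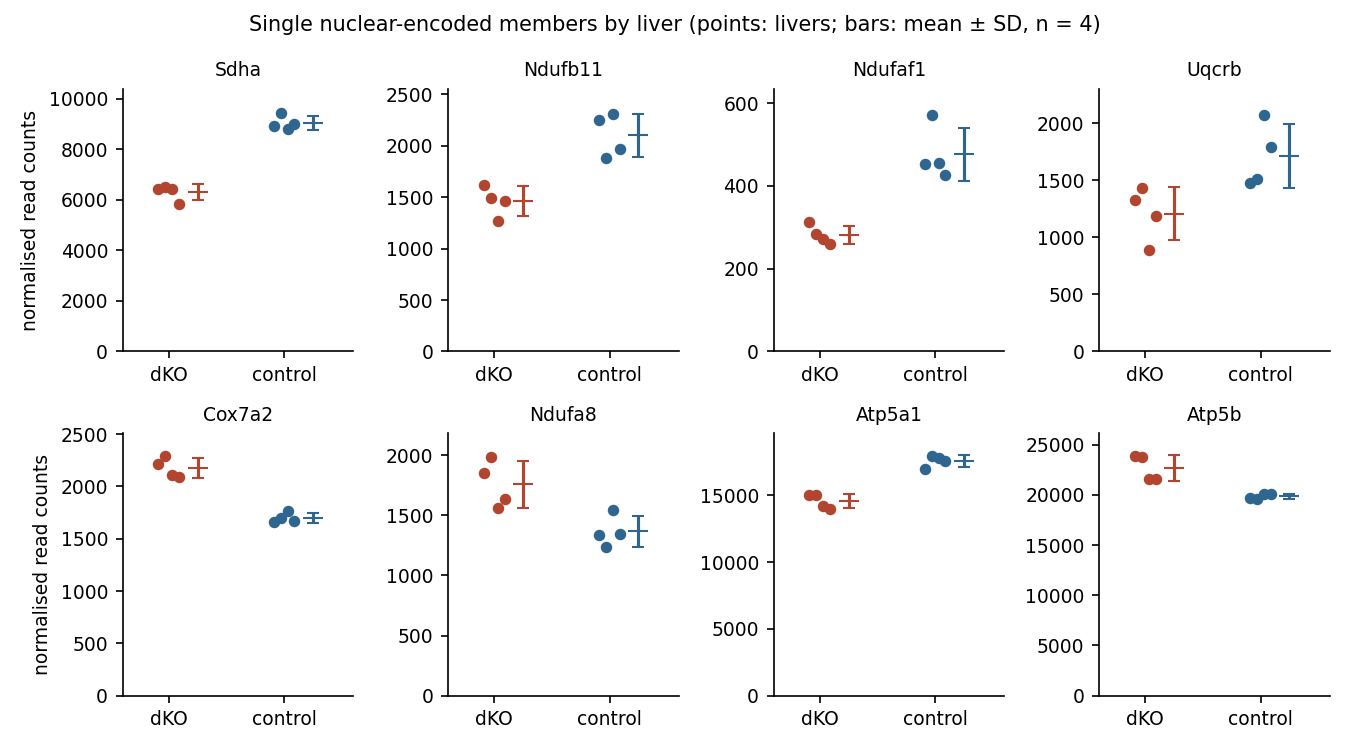
Normalised read counts (vertical axes, starting at 0) of 8 nuclear-encoded members in each dKO liver (red, left) and control liver (blue, right), with mean ± SD of 4 livers. Sdha, Ndufb11, Ndufaf1, Uqcrb and Atp5a1 lie below control in every dKO liver, and Cox7a2, Ndufa8 and Atp5b above it.

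Single livers stood apart in opposite directions. The median of the 87 nuclear members relative to the control mean was -0.02, -0.05, -0.31 and -0.17 (log2) in dKO livers 1 to 4, against -0.04, -0.11, 0.13 and 0.00 in control livers 1 to 4. dKO 3 was the lowest and control 3 the highest, so 2 livers stood at opposite ends. Without both, 12 nuclear members were lower and 5 higher, and the median log2 change was -0.04, in place of 22, 3 and -0.14. For complexes I, II and III the number lower was then 7, 1 and 1, in place of 12, 2 and 4, and the medians of complexes IV and V were 0.14 and 0.04. Both livers were picked by the medians of these same members, so a smaller change without them was built in. With 1 liver left out at a time, 18 to 25 nuclear members were lower. The core subunits of complex I had medians of -0.25, -0.18, -0.36 and -0.33 in dKO livers and -0.03 to 0.04 in control livers, apart in every liver. Among others, Sdha, Ndufaf1, Ndufaf6, Ndufb2, Ndufb5, Ndufb11, Ndufs7, Ndufs8, Ndufa9, mt-Nd4 and mt-Nd4l were lower, and Ndufa8 and Cox7a2 higher, in all 20 alternative fits.

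ZFP36L1 and ZFP36L2 bind UAUUUAU, so the annotated 3′ UTRs were searched for TATTTAT. The motif lay in the 3′ UTR of 6 of 86 nuclear members with an annotated UTR (6.98%), against 30.1% of 15415 tested protein-coding genes. Members have short 3′ UTRs, with a median longest UTR of 235 bases against 1097, and among 3296 genes of similar UTR length 8.53% held the motif. Of the 6, Cox7a2 was higher, Sdhc, Ndufv2 and Uqcrc2 were lower, and Ndufs4 and Ndufb8 passed in neither direction. The 23-base windows, from GENCODE M21 transcripts on GRCm38, lie at chr9:79755440-79755462 (Cox7a2, minus strand), chr1:171127630-171127652 (Sdhc, minus), chr17:66078862-66078884 (Ndufv2, minus), chr7:120659302-120659324 (Uqcrc2, plus), chr13:114288695-114288717 (Ndufs4, minus) and chr19:44549494-44549516 (Ndufb8, minus). They are shown because their letters match the motif that the deleted proteins bind, and capitals mark TATTTAT. A member counted if any of its annotated transcripts held the motif, and which transcripts the livers used was not measured.
Cox7a2: gggatcaaTATTTATtgatgtgt
Sdhc: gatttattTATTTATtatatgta
Ndufv2: gctatattTATTTATtttgatac
Uqcrc2: tcagcaagTATTTATtaaatgct
Ndufs4: ctgtgcacTATTTATagtccatg
Ndufb8: attgtccgTATTTATgaaataag

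In Cox7a2 the motif begins at base 93 of a 186-base UTR. In Sdhc and Ndufv2 the motif recurs in the UTR, overlapping the window shown, and forms the longer TTATTTATT. A match is a description of the letters and does not show binding.

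Promoters of the nuclear members were searched for 5 motifs, each counted on its own, on both strands of 300 bases around the start (RefSeq, GRCm38.p6), for the 72 of 87 members that matched a promoter entry. Of these motifs, 4 belong to factors known to act on respiratory genes. The NRF1 motif GCGCATGC was in 12 (16.7%), against 3.05% of all 27025 genes with a promoter entry. That background includes genes not tested here, unlike that of the 3′ UTR search. The YY1 motif AAGATGGCG was in 8 (11.1%), against 1.64%. The ETS motif ACCGGAAG, of the kind GABPA binds, was in 7 (9.72%), against 2.60%. The ERR motif TCAAGGTCA was in 2 (2.78%), against 0.466%, and the general CCAAT box was in 31 (43.1%), against 41.1%. Among members with each motif, 1 was higher and 1 lower for NRF1, 3 were lower for YY1 and 2 were lower for ETS. One 30-base window is shown for each of 6 called members, with the motif or its reverse complement in capitals, read along the gene's strand. They lie at chr2:36049328-36049357 (Ndufa8, NRF1, minus strand), chr9:108936667-108936696 (Uqcrc1, NRF1, plus), chr10:80249462-80249491 (Ndufs7, YY1, plus), chr6:126849097-126849126 (Ndufa9, YY1, minus), chr2:119662835-119662864 (Ndufaf1, ETS, minus) and chr19:3912741-3912770 (Ndufs8, ETS, minus).
Ndufa8: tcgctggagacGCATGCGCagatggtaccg
Uqcrc1: gactccgctctGCGCATGCgcagcgcggct
Ndufs7: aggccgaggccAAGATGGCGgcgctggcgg
Ndufa9: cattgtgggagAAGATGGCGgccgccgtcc
Ndufaf1: gcgggaccacaACCGGAAGcgtggcgaacc
Ndufs8: ttaggctccgcCTTCCGGTtgaaccgcatc

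The regulators themselves were measured in the same livers. Of 21 regulators of nuclear respiratory genes, 8 (38.1%) were lower and 3 (14.3%) higher. Over all genes tested, 17.0% were lower and 21.2% higher, and 34.2% and 21.2% among those with a mean of at least 500. Esrrg, an oestrogen-related receptor that drives mitochondrial genes in oxidative tissues, had 1.01, 1.85, 4.26 and 0.931 normalised read counts in dKO livers, against 103, 55.4, 75.7 and 73.2 in control livers. It had the largest change of the list, 9 reads in all dKO livers against 290 in all control livers (log2 change -5.09, SE 0.44, limma's adjusted p 2.70e-06). Its relative Esrra went the other way, with 1232 ± 172 in dKO livers and 777 ± 74.4 in control livers (log2 change 0.66, SE 0.11, limma's adjusted p 0.000366). Gabpa averaged 651 ± 48.7 in dKO livers and 1018 ± 97.9 in control livers, a log2 change of -0.64 (SE 0.09). Sirt3, a mitochondrial deacetylase, averaged 1045 ± 59.7 in dKO livers and 1704 ± 141 in control livers, a log2 change of -0.70 (SE 0.08). Nrf1 and Ppargc1a, the coactivator PGC-1alpha, were not called (log2 change -0.14, SE 0.10, and 0.28, SE 0.18).

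Genes that transcribe, copy and process mitochondrial DNA were lower or not called. Of 36 tested, 19 (52.8%) were lower, 17 were not called and none was higher, with a median log2 change of -0.34, against 17.0% lower among all genes and 34.2% among those with a mean of at least 500; at an unadjusted p under 0.05 limma, edgeR and DESeq2 each counted 0 higher and 21 lower. Tfam, which packages mitochondrial DNA and starts its transcription, had 651, 582, 607 and 632 in dKO livers, against 813, 886, 853 and 748 in control livers (log2 change -0.41, SE 0.08, limma's adjusted p 0.00126). The groups were apart. Top1mt, the mitochondrial topoisomerase, averaged 261 ± 41.5 in dKO livers and 450 ± 13.9 in control livers (log2 change -0.80, SE 0.12). Mterf3, a regulator of mitochondrial transcription, and Polg, the DNA polymerase, had log2 changes of -0.71 (SE 0.11) and -0.45 (SE 0.07). These calls and the lower mitochondrial transcripts were measured in the same 8 livers, and a link between them was not tested.

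Of 75 mitochondrial ribosome genes, 16 (21.3%) were lower and 2 higher, with a median log2 change of -0.14, between the 17.0% of all genes and the 34.2% of abundant ones. Mrpl44 averaged 270 ± 15.03 in dKO livers and 398 ± 26.6 in control livers (log2 change -0.56, SE 0.09), and Mrpl37 had a log2 change of -0.40 (SE 0.07). Mrpl54 was higher, with 549 ± 80.8 in dKO livers and 353 ± 41.6 in control livers (log2 change 0.63, SE 0.12). Of 44 further assembly factors, 14 (31.8%) were lower and 3 higher, with a median of -0.15, again between 17.0% and 34.2%. Ecsit, a partner of Ndufaf1, averaged 403 ± 12.3 in dKO livers and 617 ± 67.0 in control livers (log2 change -0.61, SE 0.09, limma's adjusted p 0.000232). Taco1, which promotes translation of mt-Co1 in human and mouse, averaged 237 ± 21.7 in dKO livers and 371 ± 35.6 in control livers (log2 change -0.65, SE 0.11, limma's adjusted p 0.000420). Coa5, a cytochrome c oxidase assembly factor, had a log2 change of -0.51 (SE 0.09).

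Genes that feed or carry electrons outside the complexes were measured too. Etfdh, which feeds electrons from fatty acid oxidation to ubiquinone, had 1881, 1916, 1988 and 1953 in dKO livers, against 6272, 6246, 5117 and 4770 in control livers. The dKO livers were nearly equal and far below (log2 change -1.52, SE 0.09, limma's adjusted p 1.54e-07). Its donor Etfa averaged 3487 ± 185 in dKO livers and 5329 ± 193 in control livers (log2 change -0.61, SE 0.07, limma's adjusted p 1.99e-05). Suox, sulphite oxidase, which hands electrons to cytochrome c, had a log2 change of -0.84 (SE 0.11). Of 10 such carriers and feeders tested, 5 (50%) were lower and 2 higher (median -0.48). Of all genes tested 17.0% were lower, and of those with a mean of at least 500, 34.2%. Cycs, cytochrome c itself, was higher, with 1662 ± 239 in dKO livers and 1162 ± 80.6 in control livers (log2 change 0.51, SE 0.10, limma's adjusted p 0.00136).

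Coenzyme Q genes moved in both directions. Of 13 tested, 5 (38.5%) were lower and 3 (23.1%) higher. Over all genes tested, 17.0% were lower and 21.2% higher, and 34.2% and 21.2% among those with a mean of at least 500. Coq8a, a kinase-like protein of coenzyme Q synthesis, had 4062, 2823, 2775 and 2274 in dKO livers, against 7710, 7910, 9031 and 9284 in control livers (log2 change -1.54, SE 0.14, limma's adjusted p 4.91e-06). Its paralog Coq8b averaged 803 ± 88.2 in dKO livers and 314 ± 54.4 in control livers (log2 change 1.36, SE 0.13, limma's adjusted p 4.42e-06). Coq10b, a coenzyme Q binding protein, had 1238, 1281, 1294 and 1283 in dKO livers, against 314, 395, 189 and 292 in control livers (log2 change 2.14, SE 0.17, limma's adjusted p 1.25e-06).

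Of 9 adenine nucleotide carriers, uncoupling proteins and porins tested, 3 were higher and none was lower by limma, edgeR or DESeq2, also at an unadjusted p under 0.05. Over all genes tested, limma called 21.2% higher and 17.0% lower. Slc25a4, the adenine nucleotide translocator that prevails in heart and muscle, had 701, 675, 669 and 609 in dKO livers, against 115, 117, 105 and 213 in control livers (log2 change 2.33, SE 0.18, limma's adjusted p 1.29e-06). Ucp2, an inner membrane carrier of the uncoupling protein family, averaged 2031 ± 327 in dKO livers and 760 ± 96.9 in control livers (log2 change 1.41, SE 0.12). Vdac2, an outer membrane porin, averaged 2007 ± 119 in dKO livers and 1352 ± 63.6 in control livers (log2 change 0.57, SE 0.07). Slc25a5, the translocator with the most reads here, averaged 7130 in dKO livers and 7223 in control livers (log2 change -0.02).

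**Figure D5:**
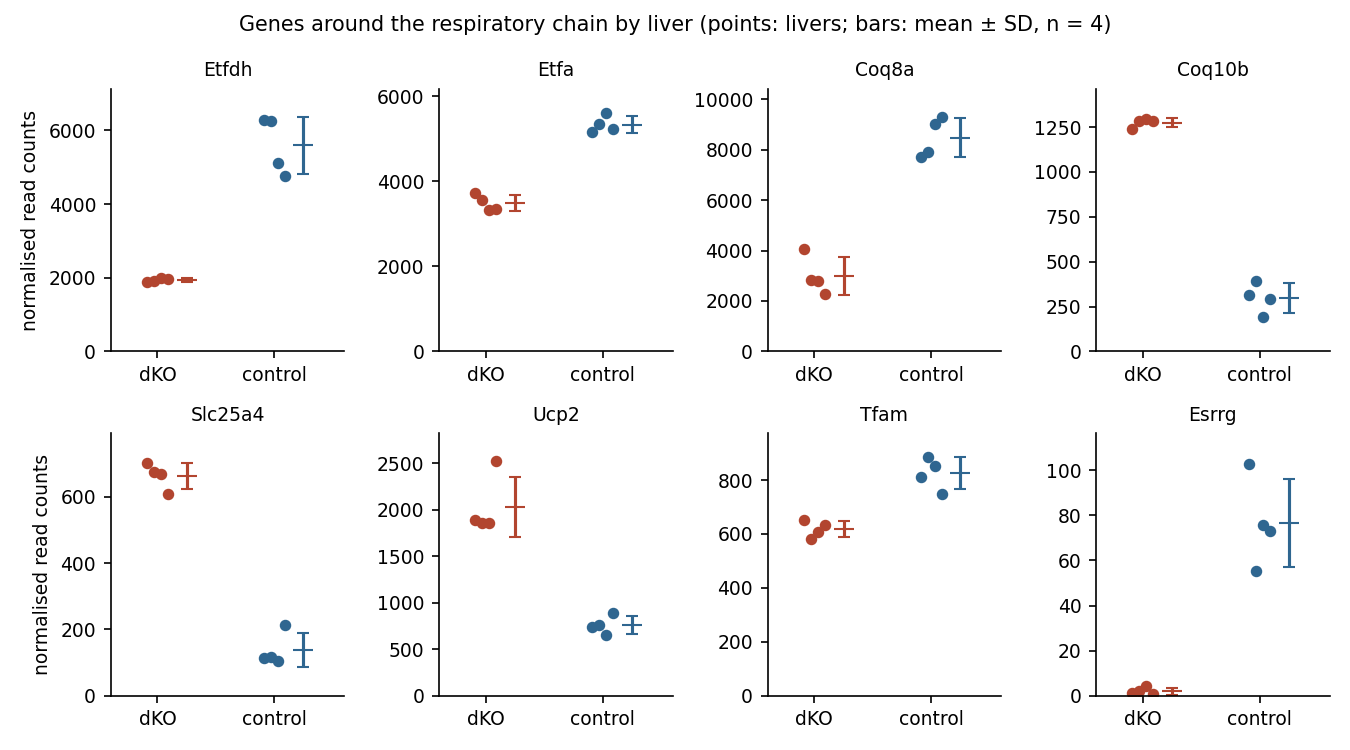
Normalised read counts (vertical axes, starting at 0) of 8 genes around the respiratory chain in each dKO liver (red, left) and control liver (blue, right), with mean ± SD of 4 livers. Etfdh, Etfa, Coq8a, Tfam and Esrrg lie below control in every dKO liver, and Coq10b, Slc25a4 and Ucp2 above it.

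Of 25 genes of the citrate cycle and pyruvate dehydrogenase, 10 (40%) were lower and 5 (20%) higher, with a median log2 change of -0.21. Among all genes with a mean of at least 500, 34.2% were lower and 21.2% higher. Mdh2, malate dehydrogenase, averaged 4713 ± 360 in dKO livers and 2889 ± 52.5 in control livers (log2 change 0.70, SE 0.07). Pdp2, a phosphatase of pyruvate dehydrogenase, averaged 332 ± 23.5 in dKO livers and 605 ± 81.3 in control livers (log2 change -0.86, SE 0.11). Among 16 tested paired or tissue-restricted isoforms, Cox7a2 was higher, Ndufa4 was lower and 14 passed in neither direction, and Ndufa4l2 averaged 49.7 in dKO livers and 36.5 in control livers (log2 change 0.48, SE 0.26).

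Markers of other cells were compared between the groups of the same livers. Over all genes tested, 21.2% were higher and 17.0% lower. Of 12 monocyte and macrophage markers 11 were higher, summing to 8616 to 12763 in dKO livers and 1648 to 6319 in control livers. All 10 neutrophil markers were higher (762 to 1084 in dKO livers, 83.2 to 369 in control livers), as were 6 of 9 Kupffer cell markers (12112 to 18727 in dKO livers, 7594 to 8701 in control livers). Of 10 stellate cell and fibroblast markers 7 were higher (23969 to 32270 in dKO livers, 4323 to 13707 in control livers), and of 8 bile duct markers 7 were higher (8526 to 12820 in dKO livers, 964 to 1772 in control livers). T and NK cell markers had 1 higher of 9 (104 to 135 in dKO livers, 52.6 to 91.3 in control livers). B and plasma cell markers had 2 higher and 3 lower of 7, and endothelial markers 2 higher and 3 lower of 8, both with overlapping sums. Red cell markers had 5 higher and 1 lower of 7 (4931 to 15474 in dKO livers, 4171 to 6221 in control livers), 2 of 4 muscle markers tested were higher (175 to 185 in dKO livers, 80.02 to 161 in control livers), and the only adipocyte marker tested was higher (4.02 to 8.32 in dKO livers, 0 to 3.08 in control livers). Of 11 hepatocyte markers 5 were lower and 2 higher, with overlapping sums. Tf, Ckm, Myh7, Plin1, Lep and Retn were not analysed here, and no other marker was at 0 in every liver. The part of these cells in the changes of oxidative phosphorylation genes was not tested.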

How the data were processed

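Total RNA of 8 mouse livers, 4 dKO and 4 control, was sequenced. The deposited values, named FPKM by the authors, were found to be a signal of another kind: in every library they were whole multiples of 1 step (tolerance 0.001), that is, reads per gene divided by 1 size factor. They are called normalised read counts here, and they carry no correction for gene length. The step of dKO 1 lies so close to 1 that its whole reads could not be told from rounding by an independent check, so the fits on recovered reads rest on it unverified. The submitters' processing notes name HISAT2 2.0.5, fastp, DESeq2, featureCounts 1.5.0-p3 and mm10, without saying which step used which. Annotation and strand setting: not given in the sources used here.

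Genes with a mean of at least 0.5 (20055) were tested with limma 3.58.1 (R 4.3.3) on log2(value + 0.5), which understates changes of low genes, with a trended empirical Bayes fit, the group as the only term and Benjamini-Hochberg adjustment at 0.05. The design had assumed FPKM, and the log-scale test was kept. edgeR 4.0.16 and DESeq2 1.42.0 on the recovered reads were 2 of 20 alternative fits. A count of 0 allows up to 3 reads, 2.55 to 3.43 normalised read counts depending on the library, for counting error only.

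Annotated copies were found by aligning coding sequences to GENCODE M21 transcripts with blastn 2.17.0 (at least 95% identity over 100 bases). Motifs were searched in GENCODE M21 3′ UTRs and RefSeq promoters (GRCm38.p6).

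The members and gene lists were chosen with earlier results of these data known. Genes named were the members encoded in mitochondrial DNA, the 2 most abundant and up to 4 called higher and 4 called lower per complex, paired or tissue-restricted isoforms, those beside the limit of 20, the 2 targeted genes, and up to 3 called per other list. Ndufb3, Ndufb4, Ndufb9, the uncalled complex I core subunits, the annotated copies, the ratios and other genes outside that rule were named after their values were seen. Some genes within these counts are not reported here by name. The scripts were tested on simulated data.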

Additional observations from a re-analysis of the deposited data

Results flagged for a closer look

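In 9 of the 100 groups of 4 livers examined, the highest or lowest liver stood apart from the other 3 by more than Dixon's 95% critical value for 4 samples. Chance alone flags about 1 in 20 groups.

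Among mitochondrially encoded members, mt-Co3 had 1283 normalised read counts in dKO 4, against 343 to 495 in the other dKO livers. mt-Nd2 had 90898 in control 2, against 77376 to 79357 in the other control livers. mt-Nd6 had 14612 in control 1, against 18736 to 18896 in the others. mt-Atp8 had 64.7 in control 1, against 13.7 to 21.7 in the others.

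Among nuclear-encoded members, Sdha had 5856 in dKO 4, against 6433 to 6522 in the other dKO livers. Atp5s had 114 in control 4, against 83.1 to 88.2 in the other control livers. Atp5j had 2902 in control 3, against 2489 to 2542 in the others.

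Of the targeted genes, Zfp36l1 had 267 in dKO 4, against 209 to 214 in the other dKO livers. Zfp36l2 had 997 in control 3, against 1722 to 1820 in the other control livers.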

How the results depend on the processing

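Mitochondrially encoded members had 0 higher in every fit, and 6 lower became 3 with the replicate block, 1 of the 4 that have no annotated copy, and 3 to 7 with 1 liver left out. For nuclear members, 22 lower became 14 under quantile normalization and 12 without dKO 3 and control 3 together, and 18 to 25 with 1 liver left out. The 3 higher became 5 when scaled to nuclear-encoded genes and 5 without both livers. The exclusion of both livers and of members with copies was chosen after seeing the data. Both livers were picked by the nuclear members' own medians, so a smaller change without them was built in.

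For complex I, 12 lower became 7 without both livers, with 2 higher and a median log2 change of -0.0595, and 6 without members that have a copy. The assembly factors had a median of -0.35 under quantile normalization. Complex II had 1 lower under quantile normalization, with a median of -0.0689, 1 without both livers and 1 to 2 with 1 liver left out. Complex III had 1 lower under quantile normalization, with a median of -0.0410, and 1 without both livers. Complex IV had 2 higher under quantile normalization (median 0.17), 2 when scaled to nuclear-encoded genes, 3 without both livers and 1 to 2 with 1 liver left out. Complex V had 2 higher with a filter at a mean of 10, when scaled to nuclear-encoded genes and in DESeq2, and 0 higher without both livers. It had 0 lower under quantile normalization, 1 when scaled to nuclear-encoded genes, with the block and without both livers, and 1 to 3 with 1 liver left out. Atp5a1 reversed to 0.0178 under quantile normalization. The cause was not tested.

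The labels do not say whether replicate numbers pair the livers. Deviations of same-numbered dKO and control livers correlated at 0.03, -0.07, 0.04 and 0.08 across genes. Those of livers with different numbers correlated at -0.12 to 0.06. These values cannot decide whether animals were paired. With the replicate block, 18 nuclear members were lower. Counting precision was lowest for mt-Atp8 and mt-Nd3, the mitochondrially encoded members with the fewest reads. How reads shared with copies were assigned was not tested.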
